A study of Mus musculus with 12 samples.

Results

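The genes of de novo lipogenesis were followed in mouse liver through 10 members: Acly, Acaca, Acacb, Fasn, Elovl6, Elovl5, Scd1, Me1, Thrsp and Pnpla3. A member was represented by the array probe set annotated with its symbol alone, and by the brightest one where there were several, which applied to Scd1. These were 10 of the 30142 genes named on the array, and all 10 were among the 18725 genes tested, those whose mean over the 12 arrays exceeded 4.55 on the log2 scale. The probe set rule and the filter used no measured difference between groups. The members themselves were chosen with earlier results of these data known.

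Liver RNA came from male C57BL/6 mice aged 12 weeks, on 12 arrays, in 3 groups of 4: control males of lean parents, F2 males and F3 males. Per the design text the F2 males were grandsons, and the F3 males great-grandsons, of females that were Avy/a and obese, Avy being the viable yellow allele of agouti. The sample labels instead name F2 and F3 sons of an obese mother, and which wording holds was not settled here. All groups shared strain, sex, age and tissue, and no treatment of the males themselves was recorded in the sources used here. To which generation the control males belonged, whether descent from the obese females ran through mothers or fathers, and whether replicates were separate animals were not given in the sources used here, so a p-value reflects only how these samples scatter, which may in part be technical. The question, going by the series title, is how liver expression responds to maternal obesity in an earlier generation. In whole liver, fewer cells of a type and less RNA per cell cannot be told apart.

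The liver turns surplus carbohydrate into fatty acids. Citrate leaves the mitochondrion and is cleaved by ATP citrate lyase (Acly) to acetyl-CoA, which acetyl-CoA carboxylases (Acaca, Acacb) carboxylate to malonyl-CoA. Fatty acid synthase (Fasn) builds palmitate from these with NADPH, part of which malic enzyme (Me1) supplies, and elongases (Elovl6, Elovl5) and stearoyl-CoA desaturase (Scd1) lengthen and desaturate the products. Insulin acting through SREBP-1c, glucose acting through ChREBP, and the oxysterol receptor LXR are known to switch these genes on after feeding, so that they are low in the fasted liver and high in the fed liver.

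The promoters of these genes are shown because many members varied together across the arrays. RefSeq start sites of the mouse assembly GRCm38.p6 gave the 250 bases before the start for 9 of the 10 members, in 10 windows, since Me1 had 2. Capitals mark a CCAAT box (CCAAT or ATTGG, the site of NF-Y), a GC box (GGGCGG or CCGCCC, the site of Sp1) or an E-box (CACGTG). The first 3 belong to genes that followed one another closely, and the last 2 to genes with another pattern described further on. Fasn lies at chr11:120824548-120824797 on the minus strand, Acly at chr11:100528001-100528250 on the minus strand, Thrsp at chr7:97417551-97417800 on the minus strand, Elovl5 at chr9:77917115-77917364 on the plus strand and Me1 at chr9:86695915-86696164 on the minus strand.
Fasn: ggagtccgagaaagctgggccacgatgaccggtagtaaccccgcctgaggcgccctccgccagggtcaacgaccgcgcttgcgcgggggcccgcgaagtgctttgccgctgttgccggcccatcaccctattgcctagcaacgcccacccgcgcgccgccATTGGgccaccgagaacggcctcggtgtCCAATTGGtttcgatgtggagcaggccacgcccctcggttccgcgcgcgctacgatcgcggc
Acly: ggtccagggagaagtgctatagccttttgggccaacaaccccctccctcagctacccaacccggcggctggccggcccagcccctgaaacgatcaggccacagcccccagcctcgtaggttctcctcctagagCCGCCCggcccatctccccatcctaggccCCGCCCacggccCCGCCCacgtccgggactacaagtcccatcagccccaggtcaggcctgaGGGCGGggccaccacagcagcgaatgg
Thrsp: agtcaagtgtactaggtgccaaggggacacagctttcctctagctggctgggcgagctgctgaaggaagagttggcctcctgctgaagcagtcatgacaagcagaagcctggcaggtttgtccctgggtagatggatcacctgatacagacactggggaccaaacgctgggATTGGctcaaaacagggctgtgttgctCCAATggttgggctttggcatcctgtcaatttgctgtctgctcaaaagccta
Elovl5: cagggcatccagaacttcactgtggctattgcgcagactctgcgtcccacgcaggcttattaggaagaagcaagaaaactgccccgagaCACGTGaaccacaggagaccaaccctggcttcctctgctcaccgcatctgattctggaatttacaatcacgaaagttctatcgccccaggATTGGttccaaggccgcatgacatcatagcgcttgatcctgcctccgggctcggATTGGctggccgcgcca
Me1: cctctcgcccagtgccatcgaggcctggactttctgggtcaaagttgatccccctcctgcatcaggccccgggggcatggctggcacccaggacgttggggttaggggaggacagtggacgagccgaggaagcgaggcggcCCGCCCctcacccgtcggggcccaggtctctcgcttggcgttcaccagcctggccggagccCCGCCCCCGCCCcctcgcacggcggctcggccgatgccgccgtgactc

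A CCAAT box was found on either strand in 6 of the 10 member windows, in Fasn, Acacb, Elovl5, Thrsp, Pnpla3 and the other Me1 window, against 33.8% of the 32851 windows of this length in the table. In Fasn 3 matches began 90, 62 and 59 bases before the start, the last 2 overlapping in the run CCAATTGG. GC boxes were found in 3 windows, those of Acly, Me1 and Pnpla3, against 32.7% of all windows, and the E-box only in Elovl5, against 6.02%. The core of the sterol regulatory element (TCACNCC or GGNGTGA) was found in none of the 10 windows and in 13.4% of all windows. A match of these letters describes the sequence and is not a measured binding site.

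The arrays were set apart by small RNA content, by a rule that used no group label, though earlier results of these data were known. The mean of 337 small nucleolar RNA genes fell into a higher set of 7 arrays (control replicates 2 and 4, F2 replicates 1 and 4, F3 replicates 1, 2 and 3) and a lower set of 5 (control replicates 1 and 3, F2 replicates 2 and 3, F3 replicate 4). The division lies at the largest gap between neighbouring arrays in that level, and the sets hold control and F2 arrays equally, 2 of each per set, but only 1 F3 array lies in the lower set. All 10 hepatocyte markers were above the filter, and their list level lay between 12.63 and 12.78 on all arrays. Across genes, which are not independent replicates, the log2 values of any pair of arrays correlated with r between 0.976 and 0.997.

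Apart from Scd1, the members were among the most variable genes on these arrays. The SD over the 12 arrays was 0.81 for Fasn, higher than for 99.5% of the genes tested, and its highest and lowest arrays differed 6.10-fold. Pnpla3 had an SD of 0.73, Acly of 0.69, Me1 of 0.65, Thrsp of 0.64 and Acacb of 0.61. Elovl6, Acaca and Elovl5 had SDs of 0.47, 0.45 and 0.43. The median SD of the members was 0.62, against 0.12 for all genes tested, and 9 of the 10 exceeded the 95th percentile of 0.32. Scd1 had an SD of 0.13, higher than for 56.8% of genes.

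This spread lay mostly inside the groups. The median SD of the members within control arrays was 0.52, within F2 arrays 0.45 and within F3 arrays 0.57, against 0.15, 0.10 and 0.10 for all genes tested. No member separated any pair of groups completely.

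**Figure D1:**
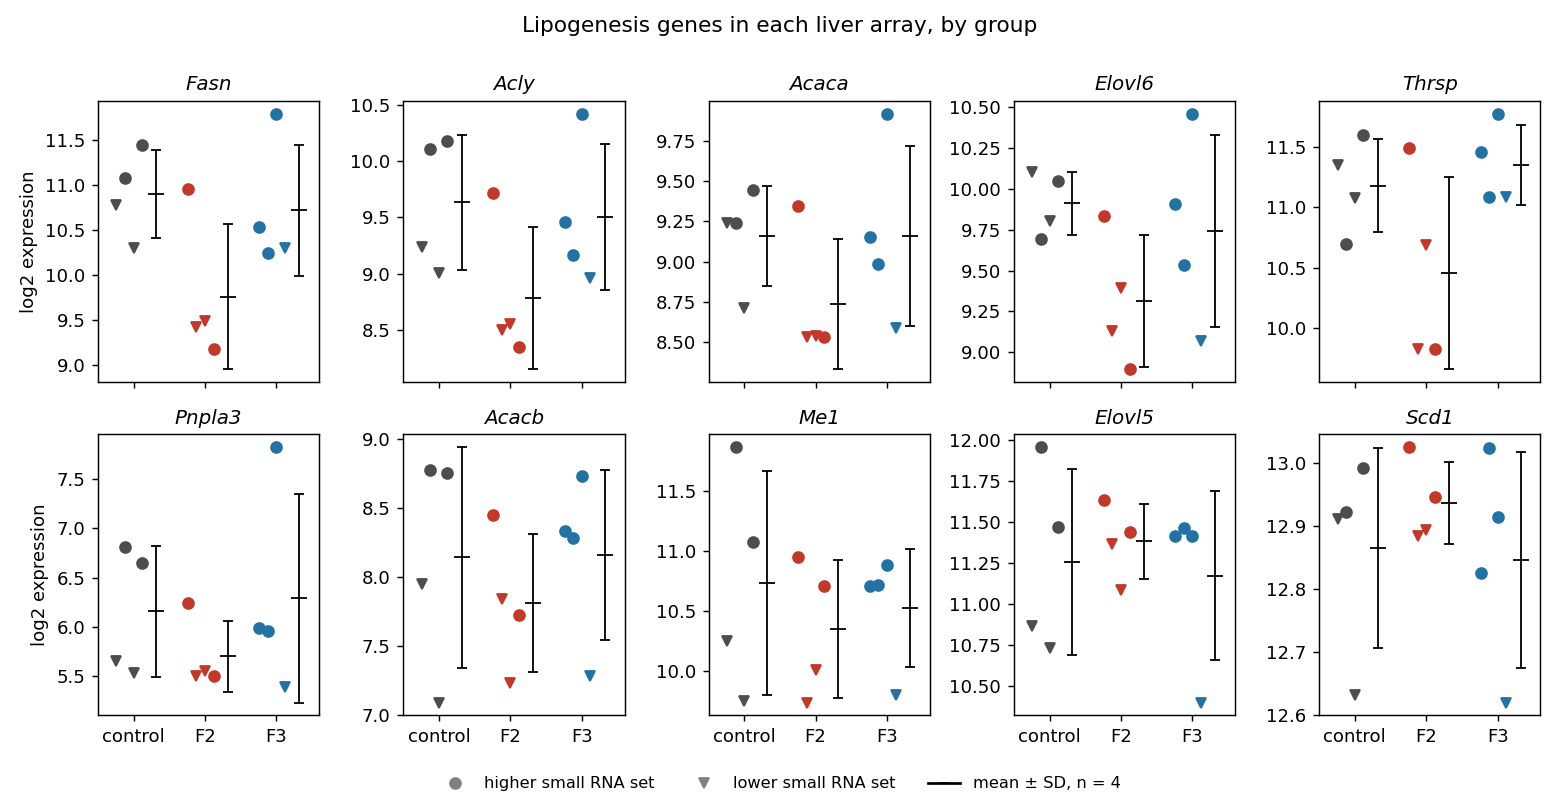
Log2 value of each lipogenesis gene (vertical axis) in every array, by group (horizontal axis), with points for arrays and bars for the group mean and SD (n = 4). For Fasn, F2 replicate 1 at 10.95 stands among the control arrays while the other F2 arrays lie between 9.18 and 9.49.

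Acly, Acaca and Fasn, which form the path from citrate to palmitate, showed the same picture in F2. Fasn read 10.78, 11.07, 10.30 and 11.44 in control replicates 1 to 4, 10.95, 9.43, 9.49 and 9.18 in F2, and 10.53, 10.24, 11.78 and 10.30 in F3. In F2 3 of the 4 arrays were below every control array, while F2 replicate 1 lay within the control range and F3 spanned it. Group means were 10.90 ± 0.48 in control, 9.76 ± 0.81 in F2 and 10.72 ± 0.72 in F3 (SD, n = 4 each). The F2 mean was 2.20-fold lower than control (log2 difference -1.14, SE 0.42, 95% interval -2.04 to -0.23), and did not pass in limma after adjustment over all genes (unadjusted p = 0.0179, adjusted p = 0.9999). Between F3 and F2 the difference in Fasn was 0.95 (SE 0.42, interval 0.05 to 1.86, unadjusted p = 0.0403 in limma, adjusted p = 0.9999).

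Acly, which makes the cytosolic acetyl-CoA, read 9.24, 10.10, 9.01 and 10.18 in control, 9.72, 8.50, 8.56 and 8.35 in F2, and 9.46, 9.17, 10.42 and 8.96 in F3. F2 replicate 1 was again in the control range and the other 3 F2 arrays were below it. The F2 mean of 8.78 ± 0.63 differed from the control mean of 9.63 ± 0.60 (SD, n = 4 each) by -0.85 (SE 0.38, interval -1.68 to -0.03, unadjusted p = 0.0444 in limma). Acaca, the cytosolic carboxylase whose malonyl-CoA feeds synthesis, read 9.24, 9.24, 8.72 and 9.44 in control, 9.35, 8.54, 8.54 and 8.53 in F2, and 9.16, 8.99, 9.92 and 8.59 in F3. Its F2 difference was -0.42 (SE 0.27, interval -1.0 to 0.16), so an interval from a 2.00-fold lower to a 1.12-fold higher level remained. The same 3 F2 arrays lay below all controls, within 0.01 of one another.

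Acacb makes malonyl-CoA at the mitochondrial surface, where it restrains fatty acid oxidation. It read 7.95, 8.77, 7.09 and 8.75 in control, 8.45, 7.84, 7.23 and 7.72 in F2, and 8.33, 8.28, 8.73 and 7.28 in F3. The groups overlapped throughout, with means of 8.14 ± 0.80, 7.81 ± 0.50 and 8.16 ± 0.62 (SD, n = 4 each). The lowest array of every group, among F2 and F3 as among control, belonged to the lower small RNA set. The F2 difference of -0.33 (SE 0.40, interval -1.19 to 0.53) was -0.12 without control replicate 2.

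Elovl6, the elongase that turns palmitate into stearate, read 10.10, 9.69, 9.81 and 10.05 in control, 9.84, 9.13, 9.39 and 8.90 in F2, and 9.91, 9.53, 10.46 and 9.07 in F3. Of the F2 arrays 3 were below all controls, and the mean difference was -0.60 (SE 0.26, interval -1.17 to -0.03, unadjusted p = 0.0409 in limma). Elovl5, which elongates polyunsaturated fatty acids, read 10.87, 11.95, 10.74 and 11.47 in control, 11.64, 11.37, 11.09 and 11.44 in F2, and 11.41, 11.46, 11.42 and 10.40 in F3. Its F2 mean of 11.38 ± 0.23 lay 0.12 above the control mean of 11.26 ± 0.56 (SE of the difference 0.28, SD with n = 4), and 0.36 above it without control replicate 2. The single low F3 array was replicate 4.

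Scd1, which makes oleate from stearate, was nearly flat: 12.91, 12.92, 12.63 and 12.99 in control, 13.02, 12.88, 12.89 and 12.94 in F2, and 12.82, 13.02, 12.91 and 12.62 in F3. The F2 difference was 0.07 (SE 0.095, interval -0.13 to 0.28). The other Scd1 probe set, not used for the member, read 11.50 ± 0.24 in control, 11.67 ± 0.09 in F2 and 11.58 ± 0.22 in F3 (SD, n = 4 each), and the mean over both gave an F2 difference of 0.12 (SE 0.11). The brighter probe set read near the upper end of the arrays, whose highest value was 13.64. The 102 genes with a mean above 12 had a median SD of 0.07, and 77.5% of them varied less than Scd1. Whether signal at this height compresses differences was not tested.

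Me1, the malic enzyme that supplies NADPH, read 10.25, 11.87, 9.75 and 11.08 in control, 10.95, 9.74, 10.005 and 10.71 in F2, and 10.71, 10.72, 10.89 and 9.80 in F3. The control group alone held its lowest but one and its highest array, and the F2 difference of -0.39 (SE 0.42, interval -1.30 to 0.53) came to -0.0088 without control replicate 2. Thrsp, the Spot 14 protein that promotes hepatic lipogenesis and answers to thyroid hormone and carbohydrate, read 11.35, 10.70, 11.08 and 11.59 in control, 11.49, 9.83, 10.69 and 9.83 in F2, and 11.45, 11.08, 11.77 and 11.08 in F3. F2 replicates 2 and 4 were clearly below the controls, replicate 3 only just, and replicate 1 was among the highest. The F2 difference was -0.72 (SE 0.33, interval -1.44 to 0.0009, unadjusted p = 0.0502 in limma), and F3 stood 0.89 above F2 (SE 0.33, interval 0.17 to 1.61, unadjusted p = 0.0197 in limma, adjusted p = 0.9999).

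Pnpla3, a lipid droplet protein induced with the lipogenic enzymes, read 5.65, 6.81, 5.53 and 6.65 in control, 6.24, 5.50, 5.56 and 5.50 in F2, and 5.99, 5.96, 7.82 and 5.39 in F3. F3 replicate 3 was the highest of all arrays. The F2 difference was -0.46 (SE 0.46, interval -1.45 to 0.53), and without control replicate 2 it was -0.24.

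No member passed an adjusted p of 0.05 in F2 against control, and limma called 0% of all genes there. At an unadjusted p under 0.05, 172 genes passed in either direction (0.919%), and 0.577% of genes passed as lower. Fasn, Acly and Elovl6 were the 3 members among the latter, and none passed as higher. The F2 difference was below 0 for 8 of 10 members, against 56.7% of genes. It was -0.3 or lower for the same 8, against 0.854% of genes, a cut not fixed before the values were seen. With a median SD of 0.62, against 0.12 for all genes tested, members pass such a fixed cut more readily than most genes. Since members vary widely and move together, 8 members are not 8 independent observations. The median difference over the members was -0.44, against -0.01 over all genes tested. Leaving out control replicate 3 gave -0.68, leaving out control replicate 2 together with F2 replicate 2 gave -0.25, and the median was -0.57 within the higher small RNA set and -0.28 within the lower.

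In 5 members, Fasn, Acly, Acaca, Elovl6 and Thrsp, 3 of the 4 F2 arrays lay below all control arrays, a count taken after the values were seen, and 3.34% of genes met it. No member had F2 wholly apart from control, against 0.705% of genes. Control and F2 have 2 arrays each in either small RNA set, so a block for the set cannot move these estimates. The F2 difference of Fasn within the higher set was -1.19 (SE 0.61) and within the lower set -1.08 (SE 0.17), from 2 arrays per group in each. Acly gave -1.11 and -0.59, Elovl6 -0.50 and -0.69, Thrsp -0.49 and -0.95, and Acaca -0.40 and -0.44 in the higher and lower sets. Limma called 0 genes after adjustment in either set.

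**Figure D2:**
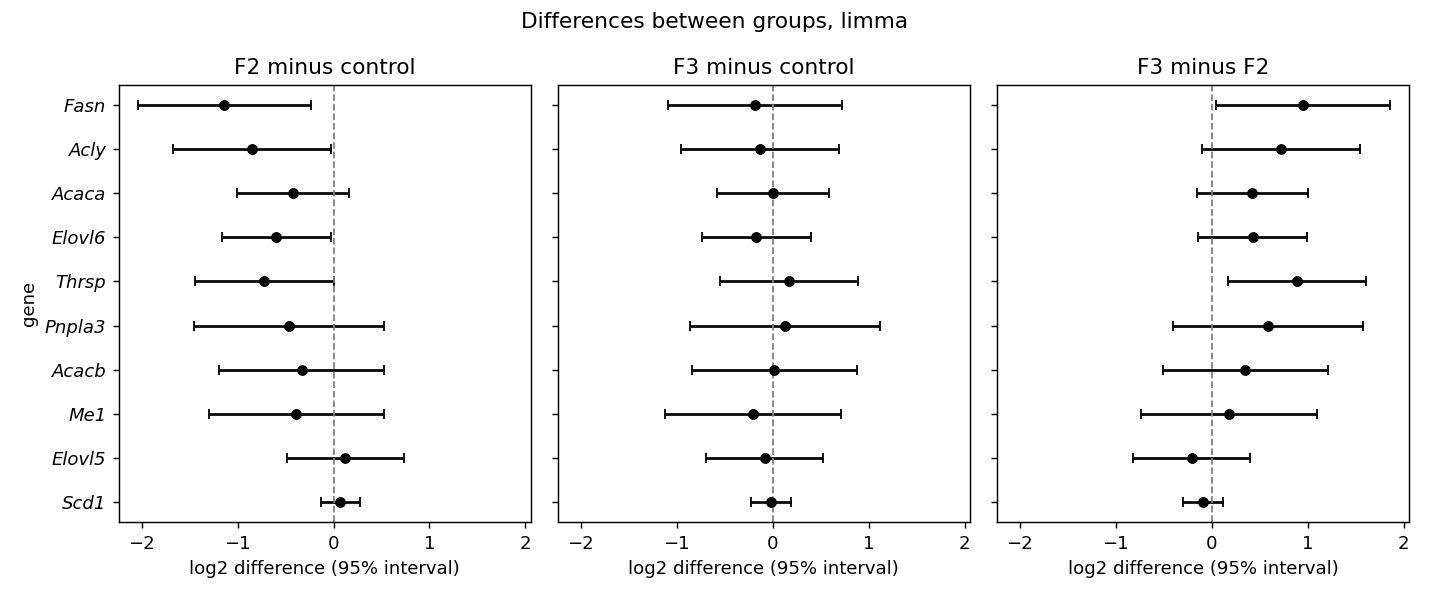
Log2 difference (horizontal axis) of each lipogenesis gene for F2 minus control, F3 minus control and F3 minus F2, with points for the limma estimate and bars for its 95% interval (4 arrays a group). For Fasn, Acly and Elovl6 the F2 minus control interval ends below 0, at -0.23, -0.03 and -0.03, and every F3 minus control interval spans 0.

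In F3 no member passed against control after adjustment. Differences ran from -0.21 for Me1 to 0.17 for Thrsp, with a median of -0.05 over members and -0.01 over all genes. F3 has 3 of its 4 arrays in the higher small RNA set, and with the set as a block the median was -0.23, with 9 of 10 members below 0 (-0.21 within the higher set and, from 1 F3 array, -0.22 within the lower). Me1 then differed by -0.50 (SE 0.18, adjusted p = 0.9999 in limma), and by -0.70 (SE 0.20, adjusted p = 0.9175) within the higher set. Over single arrays left out the median ran from -0.29 without F3 replicate 3 to 0.11 without F3 replicate 4, and it was also above 0 without control replicate 2 or 4. None of the 10 passed even the unadjusted threshold, which 548 genes (2.93%) did, and 0% of genes passed after adjustment in limma. No member had F3 apart from control, against 1.63% of genes, the difference was below 0 for 6 of 10, against 54.7%, and none had 3 of 4 F3 arrays below all controls, against 5.39%. The intervals were wide: for Fasn the difference of -0.18 had an interval from -1.09 to 0.72. F3 replicate 3 held the highest value of Fasn, Acly, Acaca, Elovl6, Thrsp and Pnpla3 among all arrays, and without it the Fasn difference was -0.54.

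Against F2, F3 was higher at an unadjusted p under 0.05 for Fasn and Thrsp, 2 of 10 members, against 1.59% of genes. No gene passed after adjustment in limma (0%, with 443 genes or 2.37% at an unadjusted p under 0.05). The median member difference was 0.43, against 0.0025 over all genes, and was 0.16 without F3 replicate 3 and 0.65 without F3 replicate 4. Without F3 replicate 3 the difference was 0.60 for Fasn, 0.75 for Thrsp and 0.08 for Pnpla3. Elovl5 and Scd1 were the 2 of 10 with a difference below 0, against 48.6% of genes, and no member had the groups apart, against 2.46%. This comparison shares the F2 arrays with F2 against control and is not a separate observation. Whether F2 and F3 differ from control to different degrees is this same contrast.

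A member score, the median over the 10 genes of the log2 value minus each gene's mean over the 12 arrays, summed up the individual arrays. It was -0.02, 0.65, -0.30 and 0.57 in control, 0.39, -0.54, -0.49 and -0.52 in F2, and 0.15, 0.03, 0.79 and -0.51 in F3. The group means were 0.22 ± 0.46, -0.29 ± 0.45 and 0.11 ± 0.53 (SD, n = 4 each). Control replicate 4, F2 replicate 1 and F3 replicate 3 had all 10 members above their own means, and F2 replicate 3 and F3 replicate 4 had only 1 above. Every group thus held an array high for the whole set and an array low for most of it.

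**Figure D3:**
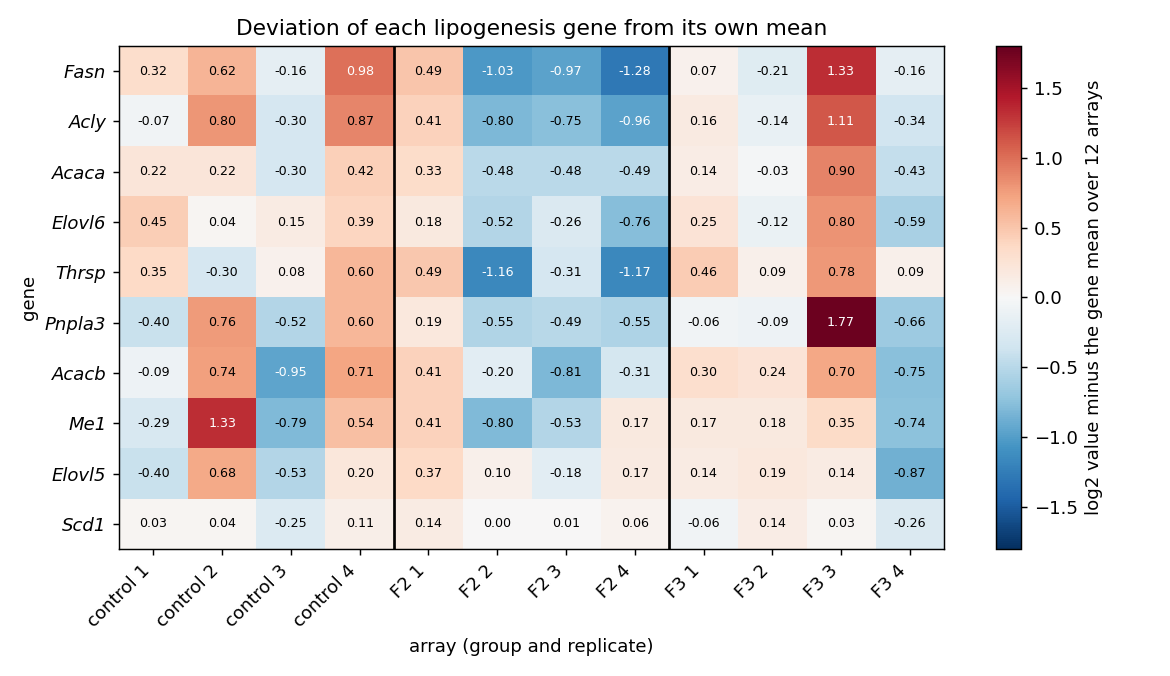
Log2 value of each lipogenesis gene (rows) minus its mean over the 12 arrays, by array (columns, grouped as control, F2 and F3), with red above and blue below the mean. Control replicate 4, F2 replicate 1 and F3 replicate 3 are above the mean in all 10 genes, and F2 replicates 2, 3 and 4 carry Fasn deviations of -1.03, -0.97 and -1.28.

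The members varied together across arrays. Correlations below are descriptions over 12 arrays that share the 3 groups, the 2 small RNA sets and each array's scale. Over the 45 pairs the median Pearson r was 0.71, with 44 above 0, and it was 0.70 after group means were subtracted. Fasn and Acly had the highest r, 0.97 (Spearman rho 0.965, and r of 0.95 without F3 replicate 3 and F2 replicate 4), and no gene tested followed Fasn more closely than Acly. Psmb4, a gene outside the set, came next with an r of 0.96, and Acaca followed with 0.93. The r of Fasn with all genes had a median of -0.02 and lay between -0.45 and 0.49 for the central 90% of genes.

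Fasn, Acly, Acaca, Elovl6 and Thrsp, a group chosen after the correlations were seen, correlated in 10 pairs with a median r of 0.85 (0.75 to 0.97). Me1, Elovl5 and Acacb, also grouped after the values were seen, correlated in 3 pairs with a median of 0.83 (0.79 to 0.86). They are the 3 members called between the small RNA sets further on. Between these groups of genes the 15 pairs ran from -0.08 for Thrsp with Elovl5, the lowest pair of all, to 0.83 for Acaca with Acacb, with a median of 0.44. Acacb stood between them: its r was 0.83 with Acaca and 0.82 with Acly, and 0.86 with Me1 and 0.79 with Elovl5. Pnpla3 likewise had an r of 0.90 with Acly and 0.89 with Acaca, but 0.54 with Thrsp, and 0.81 with Acacb and 0.70 with Me1. Scd1 followed Elovl5 (r = 0.78), but without F3 replicate 4 and control replicate 3 that r was 0.30, so it rests on those arrays.

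**Figure D4:**
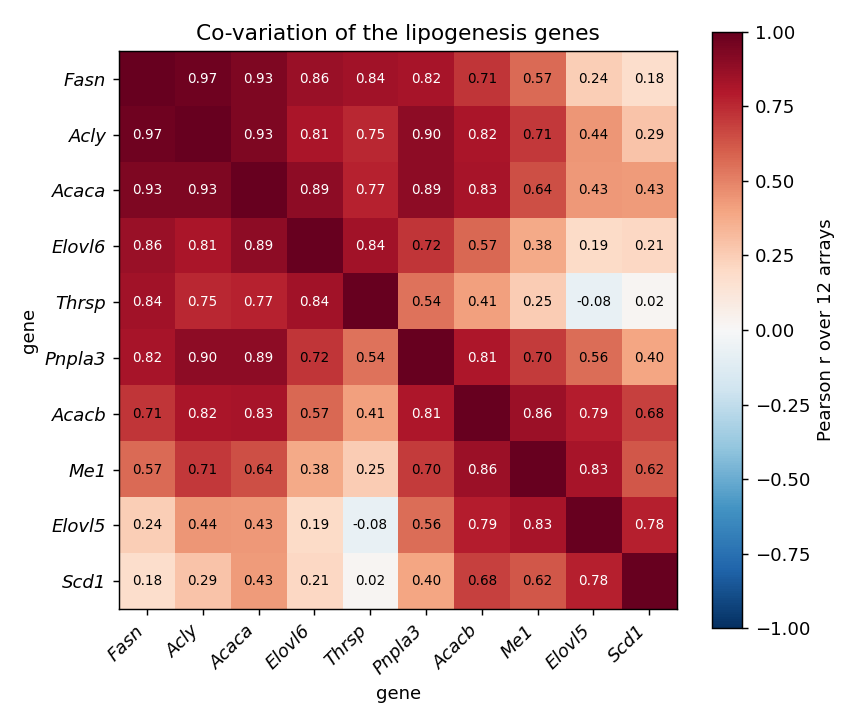
Pearson r over the 12 arrays for every pair of lipogenesis genes (rows and columns), coloured from -1 in blue to 1 in red. The block from Fasn to Thrsp holds values from 0.75 to 0.97, and Elovl5 with Thrsp is the one pair below 0, at -0.08.

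Me1, Elovl5 and Acacb differed with the small RNA content of the arrays. In limma with the small RNA set beside the groups, a model added after the data were seen, Me1 was higher in the higher set by 1.15 (SE 0.15, adjusted p = 0.000458), Elovl5 by 0.72 (SE 0.12, adjusted p = 0.00391) and Acacb by 0.97 (SE 0.20, adjusted p = 0.0115). These 3 of 10 members compare with 3.46% of genes called higher, and none of the 10 was among the 2.08% called lower (5.53% in either direction). All 10 members had a difference above 0, against 39.8% of genes. These shares include the 337 small nucleolar RNA genes that define the sets. Me1 read 10.71 to 11.87 in the higher set and 9.74 to 10.25 in the lower, and Elovl5 11.41 to 11.95 and 10.40 to 11.37, without overlap in either gene.

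The same direction held inside the groups. Me1 was higher in the higher set by 1.47 among control arrays, 0.96 among F2 and 0.97 among F3, Elovl5 by 0.91, 0.31 and 1.03, and Acacb by 1.24, 0.55 and 1.16, with a single lower array in F3. Among the 5 genes grouped with Fasn no set difference passed: Fasn differed by 0.63 (adjusted p = 0.266 in limma), Acly by 0.75 (adjusted p = 0.104), Acaca by 0.49 (adjusted p = 0.156), Elovl6 by 0.25 (adjusted p = 0.497) and Thrsp by 0.22 (adjusted p = 0.659). Leaving out single arrays altered 3 calls: Acacb was lost without F3 replicate 4 (0.90, adjusted p = 0.0648), and Acly without F2 replicate 4 (0.97, adjusted p = 0.0166) and Pnpla3 without F3 replicate 3 (0.70, adjusted p = 0.022) came to pass. What sets these arrays apart was not tested.

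After the mean of each group and set was subtracted, the 10 pairs of the Fasn group had a median r of 0.95, those of Me1, Elovl5 and Acacb 0.50, and all 45 pairs 0.48. Acacb then had an r of 0.79 with Acaca, 0.72 with Fasn and 0.69 with Acly, and of 0.40 with Me1 and 0.50 with Elovl5. With the small RNA level itself, r over the 12 arrays was 0.87 for Me1, 0.77 for Acacb, 0.74 for Elovl5, 0.59 for both Scd1 and Pnpla3, 0.56 for Acly, 0.54 for Acaca, 0.42 for Fasn, 0.25 for Thrsp and 0.22 for Elovl6. Averaged over genes, the Fasn group deviated by 0.26, 0.27, -0.11 and 0.65 in control, by 0.38, -0.80, -0.55 and -0.93 in F2, and by 0.21, -0.08, 0.98 and -0.29 in F3. Me1, Elovl5 and Acacb deviated by -0.26, 0.92, -0.76 and 0.48, by 0.40, -0.30, -0.51 and 0.01, and by 0.20, 0.20, 0.40 and -0.79. In F2 replicate 4 the Fasn group was at its lowest, while the other 3 genes averaged near 0. Of these Me1 and Elovl5 each deviated by 0.17 there, and Acacb by -0.31.

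**Figure D5:**
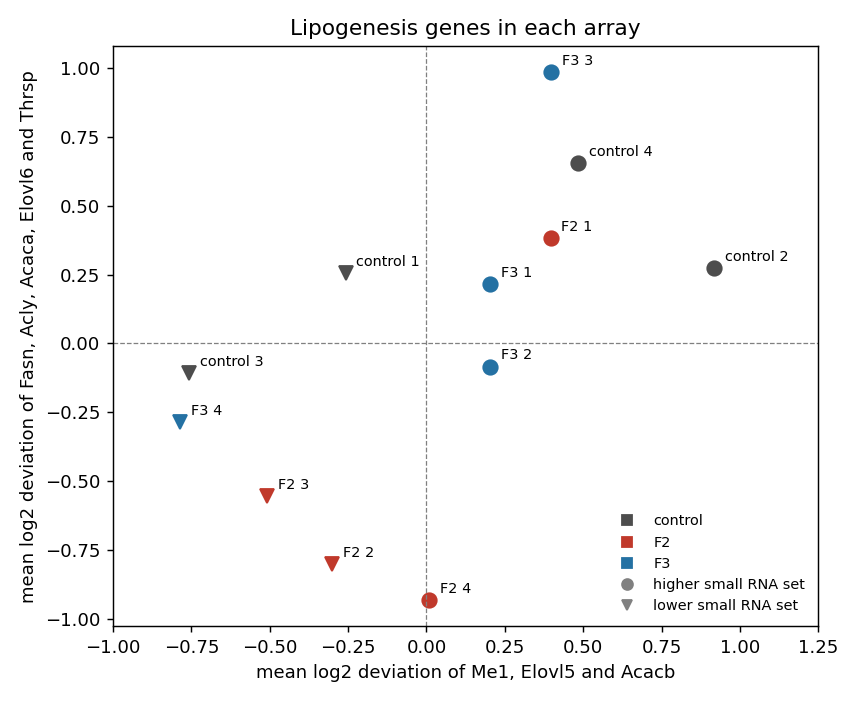
Mean deviation of Fasn, Acly, Acaca, Elovl6 and Thrsp (vertical axis, log2) against that of Me1, Elovl5 and Acacb (horizontal axis, log2) in the 12 arrays, coloured by group and shaped by small RNA set. Arrays of the lower set lie to the left of 0 on the horizontal axis, from -0.79 to -0.26, those of the higher set to the right, and F2 replicate 4 is lowest on the vertical axis at -0.93. The horizontal axis averages the 3 members called between the small RNA sets, so its division by set is not a separate result.

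Genes outside the set with the most similar pattern were taken by correlation with the member score over the 12 arrays, among 13099 protein-coding genes. The 5 highest were Sc5d, a late enzyme of cholesterol synthesis (r = 0.94, rho = 0.958), Pgd, the NADPH-producing 6-phosphogluconate dehydrogenase (0.93), Ston1 (0.91), Chrna4, a nicotinic receptor subunit (0.91), and Gpam, which starts glycerolipid synthesis (0.90). The 3 lowest were Thap11 (-0.93), Tradd (-0.89) and Tfr2, a hepatic transferrin receptor (-0.87). Closest to Fasn alone were Psmb4 (0.96), Ston1 (0.91) and Tkfc, a kinase of the fructose pathway (0.90). Psmb4 and Ston1 differed little in level, from 7.22 to 7.42 and from 5.41 to 5.65 over the arrays.

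The regulators of the pathway come next. The list of lipogenic regulators had 15 genes tested, with a median F2 difference of -0.03 and a median r with the score of -0.01. In F2, 10 of them were below control, against 56.7% of all genes. Mlxipl, which encodes ChREBP, differed by -0.13 (SE 0.11) in F2, Nr1h3, which encodes LXR alpha, by -0.04 (SE 0.06), its partner Rxra by 0.12 and Scap, the SREBP escort, by -0.10. Insig1, a sterol-regulated brake on SREBP processing, read 9.24, 9.81, 9.58 and 9.53 in control, 9.39, 8.82, 9.40 and 8.71 in F2, and 9.44, 9.20, 10.08 and 9.71 in F3, an F2 difference of -0.46 (SE 0.21, unadjusted p = 0.043 in limma). Mid1ip1, a relative of Thrsp that activates acetyl-CoA carboxylase, differed by -0.50 (SE 0.22, unadjusted p = 0.0457 in limma) and had an r of 0.81 with Fasn. These were the 2 of 15 genes past the unadjusted threshold in F2, against 0.919% of all genes. Both were lower, and neither passed after adjustment.

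Carbon and NADPH reach lipogenesis through several supply enzymes. Of 11 genes for NADPH and acetyl-CoA supply, 9 were below control in F2, against 56.7% of all genes. The list had a median F2 difference of -0.06 and a median r with the score of 0.67. Pgd differed by -0.38 (SE 0.16, unadjusted p = 0.037 in limma) and Acss2, which makes acetyl-CoA from acetate, by -0.61 (SE 0.29, unadjusted p = 0.055), and Acss2 was also among the genes called higher in the higher small RNA set (0.70, adjusted p = 0.0155 in limma). Idh1, another source of NADPH, differed by -0.18 and Pcx, pyruvate carboxylase, by 0.10. In glucose entry and glycolysis 6 of 8 genes were below control in F2 (median -0.10), against 56.7% of all genes. Pklr, the liver pyruvate kinase and a ChREBP target, differed by -0.34 (SE 0.17, unadjusted p = 0.0628 in limma), with an r of 0.86 with Fasn. Gckr, the glucokinase regulator, differed by -0.15 (SE 0.06, unadjusted p = 0.0361 in limma). It was the only gene of that list past the unadjusted threshold, which 0.919% of all genes passed. The fructokinase Khk differed by -0.17 and the glucose transporter Slc2a2 by -0.13.

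The other elongases and desaturases include the partners of Elovl5. Of 9 genes tested 3 were below control in F2 (median 0.04), against 56.7% of all genes. Called higher in the higher small RNA set were 5 of the 9, against 3.46% of all genes. These were Fads1 by 0.42 (adjusted p = 0.0347 in limma), Fads2 by 0.44 (adjusted p = 0.0191) and Elovl3 by 0.72 (adjusted p = 0.0241). The others were Elovl2 by 0.34 (adjusted p = 0.0424 in limma) and Hsd17b12 by 0.34 (adjusted p = 0.013). Such calls were not confined to this list. In other pathway lists Pparg (0.75), Acss2 (0.70), Cs (0.27), Acsl5 (0.55), Hmgcs1 (1.21) and Stard4 (0.39) were called higher too. Fads1 and Fads2 are the desaturases of polyunsaturated fatty acid synthesis, the pathway in which Elovl5 elongates. The F2 differences of the 4 genes with the lowest p in this list were 0.08 for Elovl2, -0.11 for Tecr, 0.04 for Hacd2 and 0.11 for Hacd3. In acyl-CoA and triglyceride synthesis 7 of 13 genes were below control in F2 (median -0.0032), against 56.7% of all genes. Gpam differed by -0.33 (SE 0.25), the acyl-CoA synthetase Acsl4 by -0.26, Dgat1 by -0.11 and Mogat1 by -0.10.

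Cholesterol synthesis genes, the other branch under SREBP control, were below control in F2 for all 15 tested, against 56.7% of all genes. Their median was -0.39 and none passed the unadjusted threshold in limma. In F3, 14 of the 15 were also below control (median -0.22), against 54.7% of all genes. All 15 correlated above 0 with the member score (median r 0.72, against -0.07 over all genes). The F2 difference was -0.71 for Fdps, -0.50 for Lss, -0.39 for Dhcr7 and -0.27 for Mvk. Control replicate 2 carried much of their range: Fdps read 9.87 there and 7.57 to 8.76 in the other controls, and Sqle 8.0 against 4.46 to 5.35. In fasting-induced genes the median r with the score was 0.01, with 8 of 13 below control in F2, against 56.7% of all genes. Pck1, the gluconeogenic enzyme, was 0.28 above control (SE 0.12, unadjusted p = 0.0372 in limma), Pdk4 differed by -0.37 and Angptl4 by 0.21. The malonyl-CoA-sensitive importer Cpt1a was 0.25 above (SE 0.12, unadjusted p = 0.0527), in a list of 6 genes with a median of 0.06, in which Mlycd differed by 0.07, Slc25a20 by 0.12 and Prkaa2 by -0.17. Core clock genes, 12 tested, had a median of 0.01 and a median r with the score of -0.19, against -0.07 over all genes. Clock differed by 0.12, Npas2 by -0.07, Per3 by 0.07 and Dbp by 0.07.

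Adipocytes make the same enzymes, so their markers were read beside the members. Of 9 adipocyte markers measured 8 passed the filter, and Adipoq, at a mean of 2.87, did not. Their list level lay between 5.39 and 5.57 in control, 5.36 and 5.49 in F2 and 5.33 and 5.46 in F3, and its r with the member score was -0.54. Plin1, the adipocyte lipid droplet coat, read 5.19 to 5.55 in control, 5.25 to 5.43 in F2 and 5.23 to 5.36 in F3. Levels of pancreatic acinar markers were 4.82 to 5.27, 4.94 to 5.10 and 4.96 to 5.08, and of Kupffer cell markers 7.64 to 7.93, 7.51 to 8.31 and 7.35 to 8.0 in the 3 groups, with r to the score of -0.25 and -0.11. Levels of sinusoidal endothelial, stellate cell, cholangiocyte and lymphocyte markers had r to the score of -0.09, -0.16, -0.29 and -0.33. None of these lists' levels separated F2 from control, and their part in the members' values was not tested.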

How the data were processed

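Liver RNA of 12 samples was measured on Affymetrix whole-transcript arrays. The deposited values were log2 expression per probe set. Per the submitters' processing notes, Affymetrix Expression Console produced them; its version and the background correction and normalization it applied were not given in the sources used here. That the scale is log2 follows from the range of the values.

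Genes were named from the platform annotation, and probe sets with several symbols were left out. All 12 arrays were fitted in limma 3.58.1 (R 4.3.3, lmFit and eBayes, 9 residual degrees of freedom, no covariate), with Benjamini-Hochberg adjustment over 18725 genes and a threshold of 0.05. The fit was tested on simulated data.

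The members and lists were chosen with earlier results of these data known. Named genes were the 10 members, the 5 highest and 3 lowest by correlation with their score, the 3 closest to Fasn, the 4 of each of 9 pathway lists with the lowest p in F2, and Mlxipl, Nr1h3, Pklr and Insig1; Sqle, Plin1, Adipoq and genes called by small RNA set were chosen after their values were seen. Another 8 lists held cell markers. The array number limits the precision. The small RNA set term was added after the data were seen. Alternatives were other scalings, filters, weights, blocks and arrays left out.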

Additional observations from a re-analysis of the deposited data

Results flagged for a closer look

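Of 33 groups of 4 values examined (10 genes and their score in 3 groups), 6 held an array far from the other 3, and chance alone flags about 1 in 20 groups. In F2 the same array, replicate 1, stood high in Acly at 9.72 (others 8.35 to 8.56), in Acaca at 9.35 (others 8.53 to 8.54), in Pnpla3 at 6.24 (others 5.50 to 5.56) and in the member score at 0.39 (others -0.54 to -0.49). In F3 replicate 4 stood low in Elovl5 at 10.40 (others 11.41 to 11.46) and in Me1 at 9.80 (others 10.71 to 10.89). Genes of the set vary together, so these are not 6 separate events. Without F2 replicate 1 the F2 difference of Fasn was -1.53, the largest over single arrays left out.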

How the results depend on the processing

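For Fasn, Acly, Acaca, Elovl6, Thrsp and Pnpla3, F2 minus control was below 0 under the 25 alternatives, 11 of which left the estimate as it was (filters, blocks, the eBayes settings, F3 arrays left out), so 14 bear on the sign. No member passed under any of them; the lowest adjusted limma p was 0.614. Leaving out single arrays gave -1.53 to -0.94 for Fasn, -1.16 to -0.67 for Acly, -0.62 to -0.33 for Acaca, -0.77 to -0.46 for Elovl6 and -1.06 to -0.51 for Thrsp. Small differences turned sign, and the cause was not tested.

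F2 minus control turned to -0.17 for Elovl5 within the higher small RNA set, 0.014 for Acacb within the lower set and 0.20 for Me1 without control replicate 2 and F2 replicate 2. Over single arrays left out it ran from -0.049 to 0.36 for Elovl5 and -0.0051 to 0.11 for Scd1.

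F3 minus control turned to -0.035 (Acaca), -0.16 (Acacb) and -0.0068 (Thrsp) with array weights, 0.034 (Scd1) with the mean over probe sets, and -0.054 (Acaca) with quantile normalization. With the small RNA set as a block it was -0.12 (Acaca), -0.23 (Acacb) and -0.087 (Pnpla3). Within the higher set it was -0.31 (Acacb), 0.098 (Elovl6) and -0.14 (Pnpla3), and, with 1 F3 array, within the lower set -0.39 (Acaca), -0.24 (Acacb), -0.13 (Thrsp) and -0.20 (Pnpla3), with 2 genes passing. Without control replicate 2 and F2 replicate 2 it was 0.028 (Acly), 0.15 (Elovl5), 0.0006 (Scd1) and 0.17 (Me1). Over single arrays left out it ran from -0.43 to 0.053 (Acly), -0.25 to 0.19 (Acaca), -0.33 to 0.31 (Acacb), -0.41 to 0.055 (Elovl6), -0.26 to 0.17 (Elovl5), -0.10 to 0.056 (Scd1), -0.54 to 0.17 (Me1) and -0.38 to 0.43 (Pnpla3).

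F3 minus F2 turned for Me1 to -0.11 in the blocked fit by set, -0.058 and -0.072 within the higher and lower sets and -0.026 without the pair of arrays, and over single arrays left out ran from -0.03 to 0.42 for Me1 and -0.31 to 0.048 for Elovl5. Within the lower set it was -0.25 (Acacb), -0.19 (Elovl6) and -0.14 (Pnpla3), the median member difference was -0.11, 3 genes passed, and the median SD of the members was 0.34.

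Genes called between the small RNA sets numbered 1036, and 2070 with quantile normalization, 2009 with centring on array medians and 1864 with no filter; Thrsp ran from -0.038 to 0.42 over single arrays left out, below 0 only without F2 replicate 1.

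With the replicate number as a block, no gene passed in any of the 3 comparisons, and the F2 difference of Fasn was -1.14 (SE 0.45). Deviations of same-numbered arrays correlated from -0.51 to 0.32. Same-numbered arrays can lie in different small RNA sets, so these values cannot decide whether the labels' numbers pair the samples.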
